A study of Homo sapiens with 24 samples.

Results

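The genes described here belong to TGF-beta and activin signalling. They are 10 genes chosen by name, namely the ligands *TGFB1*, *TGFB2*, *TGFB3* and *INHBA*, the receptors *TGFBR1*, *TGFBR2* and *TGFBR3*, the extracellular antagonists *FST* and *FSTL3*, and the intracellular inhibitor *SMAD7*. The choice was made with earlier results of these data known, so the number of them called may partly reflect it. All 10 were found among the 33086 gene symbols of the table, and the counts of their transcripts were summed per gene. RNA-seq counts came from A549, a long-established human line of lung adenocarcinoma cells. Cells had been exposed to 100 nM dexamethasone (dex), a synthetic glucocorticoid (GC), or to the ethanol vehicle alone (EtOH, 0.02%) for 1, 3, 5, 7, 9 or 11 h, which made 12 groups of 2 libraries. The labels do not say whether the 2 libraries of a group came from separate cultures, so p-values measure the spread between these libraries, which may be technical.

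Ligands of the TGF-beta family are secreted dimers that bind a type II receptor kinase, which then phosphorylates a type I receptor kinase. The type I receptor in turn phosphorylates SMAD2 and SMAD3, which join SMAD4 and enter the nucleus. Activins, dimers of inhibin beta subunits, use their own receptors but the same SMADs. Follistatin and its relative FSTL3 bind activins and keep them from their receptors, and SMAD7 blocks the type I receptor from within the cell. In A549 cells TGF-beta is best known for driving the change from an epithelial to a mesenchymal state.

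Libraries held between 6708864 and 13748598 counts (median 10109393.5), and 19885 features passed the filter on low counts. The biological coefficient of variation ran from 6.48% at 7 h to 12.7% at 11 h, so the test at 11 h was the least precise. All 5 epithelial markers had a mean of at least 1 CPM (counts scaled to library size by the TMM method), with summed levels of 3236 to 5155 CPM in EtOH and 3908 to 10640 CPM in dex libraries. At 5 h 3 of them were higher with dex and 2 were lower. A mean of 1 CPM was reached by 2 of 5 blood cell, 0 of 3 endothelial and 1 of 5 fibroblast markers. The summed levels of these lists were at most 7.93, 1.06 and 5.47 CPM. Another endothelial marker, *PECAM1*, was not found among the gene symbols. The part of the shift in epithelial markers in the results on the pathway was not tested. In RNA from a whole culture, fewer cells of a type and less RNA per cell cannot be told apart. Of 8 known GC targets 7 had enough counts, and from 3 h on each of these was higher with dex at every time point, 6 of them already at 1 h.

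The 2 libraries with dex and the 2 with EtOH were set against each other at every time point, and a gene was called where the adjusted p was at most 0.1 (quasi-likelihood test of edgeR, adjusted by Benjamini-Hochberg over all 19885 features). Of the 10 genes 9 could be tested. *INHBA* had too few counts. Only *TGFBR1* was called at 1 h, higher with dex, where 0.865% of all features were called and 0.523% were higher. At 3 h 3 of the 9 were higher and 2 lower, against 7.68% and 5.31% of all features (13.0% together). At 5 h 3 were higher and 2 lower again, against 11.3% and 11.9% (23.2%). At 7 h 4 were higher and 2 lower, against 13.4% and 12.4% (25.8%), and at 9 h also 4 and 2, against 10.1% and 8.21% (18.3%). At 11 h 3 were higher and 2 lower, against 5.31% and 3.26% (8.57%). From 3 h on the lower genes were *TGFB2* and *FST*, and *TGFBR1*, *TGFBR3* and *FSTL3* were higher at each of these times. *TGFBR2* was added at 7 h and *SMAD7* at 9 h, both higher. These 5 genes were called at 2 or more consecutive time points, as were 18.9% of all features.

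**Figure D1:**
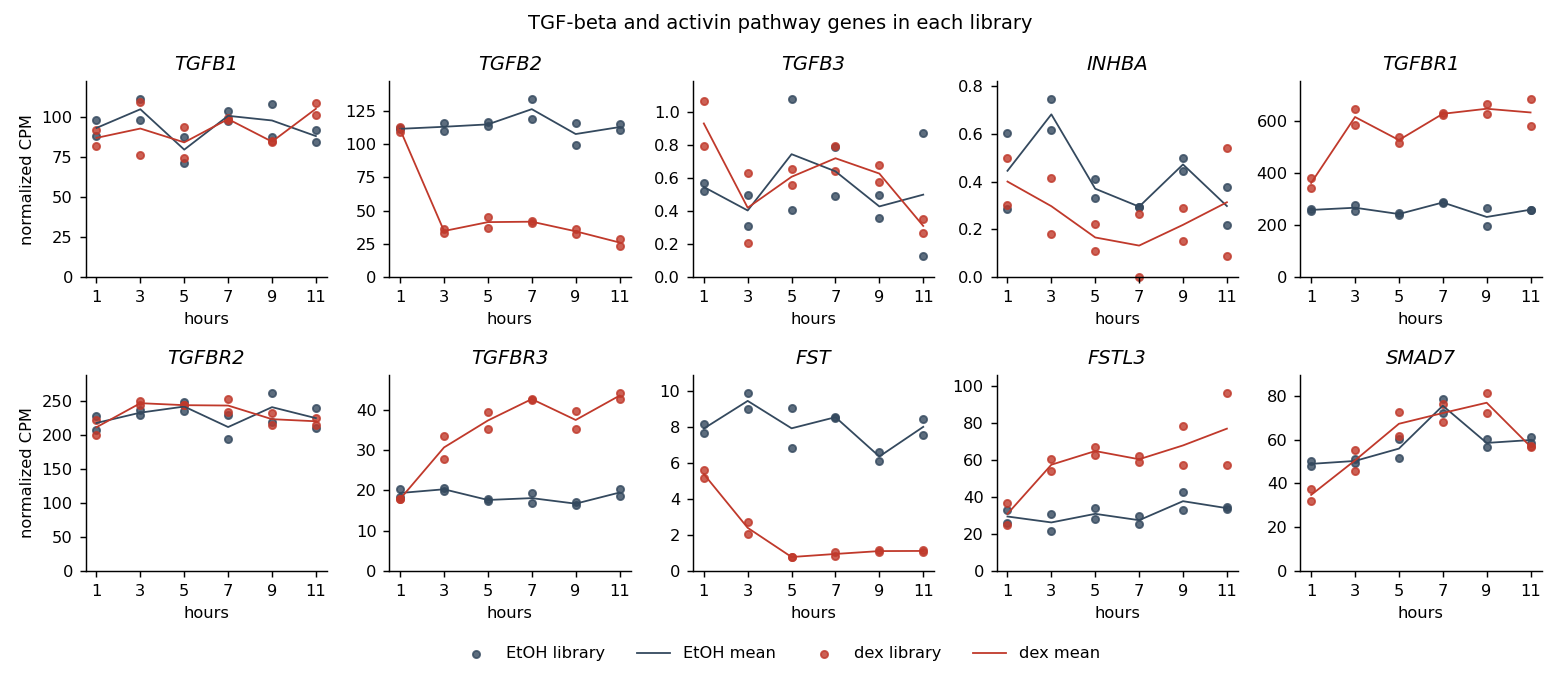
Normalized CPM of the 10 genes in each library (points) over hours of exposure, with lines through the mean of the 2 libraries of each group, EtOH in dark blue and dex in red. From 3 h on the dex libraries lay below the EtOH libraries for *TGFB2* and *FST* and above them for *TGFBR1*, *TGFBR3* and *FSTL3*.

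The ligand that changed was *TGFB2* (TGF-beta 2, chromosome 1 from 218346235 to 218444619, plus strand, GRCh38). Its EtOH libraries held 111 and 112 CPM at 1 h, 110.0 and 116 at 3 h, 113 and 116 at 5 h, 118 and 134 at 7 h, 115 and 99.5 at 9 h, and 115 and 111 at 11 h. Its dex libraries held 113 and 109 CPM at 1 h, 36.2 and 33.1 at 3 h, 45.4 and 37.3 at 5 h, 40.9 and 42.4 at 7 h, 32.6 and 36.4 at 9 h, and 28.6 and 23.5 at 11 h. The groups overlapped at 1 h, and at every later time both dex libraries lay far below both EtOH libraries. The level with dex was 3.28-fold lower at 3 h, a log2 fold change of -1.71 (standard error, SE, 0.11, adjusted p = 2.16e-13). It was 2.79-fold lower at 5 h and 4.33-fold lower at 11 h, where the log2 fold change was -2.12 (SE 0.16, adjusted p = 1.55e-06). At 1 h the log2 fold change was -0.02 (SE 0.11, adjusted p = 0.998). *TGFB2-OT1* on the same strand shares 1371 exon bases with *TGFB2* and was not analysed here.

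*TGFB1* (chromosome 19 from 41301587 to 41353911, minus strand), which encodes the most studied ligand of the family, was called at no time point. Its levels ran from 71.6 to 111 CPM (median 94.5) in the 12 EtOH libraries and from 74.5 to 109.5 CPM (median 92.8) in the 12 dex libraries. The groups overlapped at 4 of the 6 time points, and log2 fold changes stayed between -0.20 and 0.25 with SEs of 0.08 to 0.14. Leaving out 1 library produced a call at 3, 9 or 11 h, with log2 fold changes of -0.47 (without dex replicate 2), -0.36 (without EtOH replicate 1) and 0.31 (without dex replicate 1). *HNRNPUL1* on the opposite strand shares 215 exon bases with *TGFB1*. The libraries were stranded, but the use of strand in counting is not given in the sources used here.

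The other ligands were close to the limit of detection. *TGFB3* (chromosome 14 from 75958099 to 75982991) had 139 counts over all libraries, between 1 and 13 in an EtOH library and between 2 and 9 in a dex library. It was called at no time point, with SEs of 0.58 to 0.85 on the log2 scale, so that a 2-fold change could go undetected at this depth. *INHBA* (chromosome 7 from 41667168 to 41705834), which encodes the subunit of activin A, had 84 counts in all. The 12 EtOH libraries held 2 to 9 of them each, 55 together, and the 12 dex libraries held 0 to 6, 29 together. *INHBA* did not pass the filter on low counts, so it entered only the alternative fits without that filter, and no test result for it is given here. A library with 0 counts allows up to 3, for counting error only.

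Among the receptors, *TGFBR1* (chromosome 9 from 99104038 to 99154192, plus strand), the type I receptor of TGF-beta, was higher with dex at all 6 time points. EtOH libraries held 260.0 and 255 CPM at 1 h, 277 and 255 at 3 h, 238 and 246 at 5 h, 283 and 289 at 7 h, 264 and 198 at 9 h, and 258 and 259 at 11 h. Dex libraries held 381 and 341 CPM at 1 h, 584 and 643 at 3 h, 538 and 513 at 5 h, 621 and 631 at 7 h, 664 and 626 at 9 h, and 683 and 579 at 11 h. The groups did not overlap at any time. The log2 fold change was 0.48 at 1 h (SE 0.11, adjusted p = 0.0381) and 1.20 at 3 h (SE 0.10, adjusted p = 2.47e-11). It then stayed between 1.11 and 1.49, which was 2.81-fold at 9 h. The call at 1 h was lost without EtOH replicate 1 (adjusted p = 0.567), without EtOH replicate 2 (0.938), and with 1 transcript in place of the sum (0.137), at log2 fold changes of 0.49, 0.47 and 0.49.

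*TGFBR3* (chromosome 1 from 91680343 to 91906335, minus strand) encodes betaglycan, a co-receptor without a kinase that presents ligand, TGF-beta 2 above all, to the type II receptor. EtOH libraries held 20.3 and 18.5 CPM at 1 h, 19.9 and 20.7 at 3 h, 17.8 and 17.4 at 5 h, 16.8 and 19.4 at 7 h, 17.0 and 16.4 at 9 h, and 18.5 and 20.4 at 11 h. Dex libraries held 17.8 and 17.9 CPM at 1 h, 27.9 and 33.5 at 3 h, 39.4 and 35.3 at 5 h, 42.8 and 42.5 at 7 h, 39.6 and 35.3 at 9 h, and 44.3 and 42.8 at 11 h. Both dex libraries lay just below the EtOH libraries at 1 h and above them at every later time. The log2 fold change was 0.59 at 3 h (SE 0.14, adjusted p = 0.00361) and 1.24 at 7 h (SE 0.12, adjusted p = 1.46e-10), a 2.36-fold higher level. At 3 h the call was lost when the most counted transcript replaced the sum (log2 fold change 0.26, adjusted p = 0.520).

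The type II receptor *TGFBR2* (chromosome 3 from 30606502 to 30694142, plus strand) ran from 194 to 262 CPM (median 229.6) in EtOH and from 200.1 to 253 CPM (median 233) in dex libraries. It was called only at 7 h, where EtOH libraries held 194 and 229 CPM and dex libraries 233 and 253. The log2 fold change there was 0.20 (SE 0.08, adjusted p = 0.0739). That call held in 5 of 12 alternative settings, and without EtOH replicate 1 the log2 fold change was 0.09 (adjusted p = 0.509). At the other times log2 fold changes lay between -0.10 and 0.08. The value at 9 h was -0.23 without EtOH replicate 2 and 0.02 without EtOH replicate 1.

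**Figure D2:**
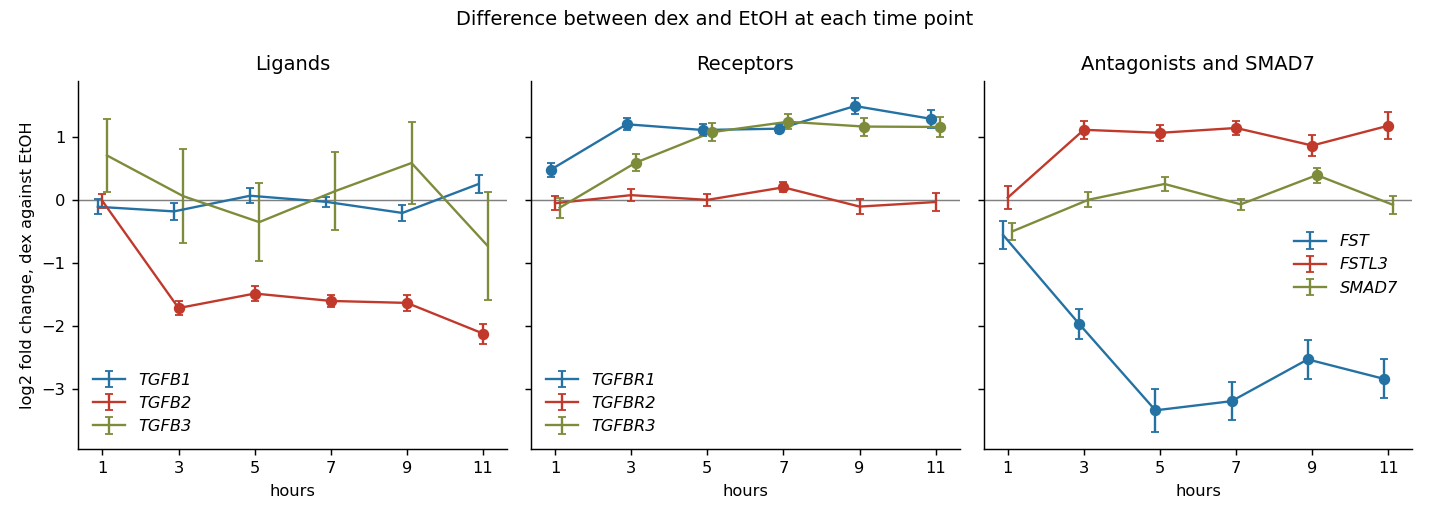
Log2 fold change of dex against EtOH over hours of exposure for the 9 tested genes, with bars of 1 standard error and filled points where the adjusted p was at most 0.1. *TGFB2* and *FST* stayed below 0 and *TGFBR1*, *TGFBR3* and *FSTL3* above 0 from 3 h on, and *TGFB1*, *TGFBR2* and *SMAD7* stayed within 0.50 of it.

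The antagonists of activin moved in opposite directions. *FST* (follistatin, chromosome 5 from 53480409 to 53487134, plus strand) had the largest change of the 9 genes. EtOH libraries held 8.13 and 7.66 CPM at 1 h, 9.88 and 8.97 at 3 h, 9.01 and 6.81 at 5 h, 8.49 and 8.56 at 7 h, 6.59 and 6.10 at 9 h, and 8.45 and 7.53 at 11 h. Dex libraries held 5.57 and 5.17 CPM at 1 h, 2.07 and 2.71 at 3 h, 0.764 and 0.784 at 5 h, 0.828 and 1.06 at 7 h, 1.15 and 1.05 at 9 h, and 1.05 and 1.17 at 11 h. Both dex libraries lay below both EtOH libraries at all 6 time points. At 1 h the log2 fold change of -0.56 (SE 0.22) was not called (adjusted p = 0.608). It was -1.96 at 3 h (SE 0.24, adjusted p = 2.65e-07) and -3.33 at 5 h (SE 0.34, adjusted p = 7.54e-11), a 10.1-fold lower level. At 11 h it was still 7.12-fold lower. Dex libraries held only 7 to 14 counts of *FST* each from 5 h on, against 61 to 88 in the EtOH libraries, so these folds rest on few reads.

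*FSTL3* (chromosome 19 from 676365 to 683399, plus strand) was higher with dex from 3 h on. EtOH libraries held 25.7 and 33.2 CPM at 1 h, 21.4 and 31.1 at 3 h, 33.9 and 27.9 at 5 h, 25.3 and 29.6 at 7 h, 32.9 and 42.5 at 9 h, and 33.6 and 34.4 at 11 h. Dex libraries held 25.0 and 36.8 CPM at 1 h, 60.8 and 54.1 at 3 h, 62.5 and 67.2 at 5 h, 61.9 and 58.8 at 7 h, 57.5 and 78.2 at 9 h, and 57.5 and 96.4 at 11 h. The groups overlapped at 1 h and were apart at each later time, although the 2 dex libraries at 11 h were far from each other. The log2 fold change was 1.11 at 3 h (SE 0.14, adjusted p = 1.42e-06) and 1.14 at 7 h (SE 0.11, adjusted p = 1.74e-10). It was 0.86 at 9 h (SE 0.17, adjusted p = 0.0032), and without dex replicate 2 that call was lost (log2 fold change 0.61, adjusted p = 0.149).

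The promoters of the lower *TGFB2* and *FST* and of the higher *FSTL3* are shown next, since they carry the contrast between a ligand and an antagonist that went down and an antagonist that went up. They are the plus strand of GRCh38.p14 as RefSeq gives it, 250 bases before and 50 from the start site, whose RefSeq position need not be that of the GENCODE gene. Capitals mark motifs searched on both strands. One is a loose spelling of the AP-1 site, TGANTCA with N for any base, where the usual site has C or G. Another is the box bound by SMADs, called the CAGA box here and spelled CAGACA. The third is the TATA box, whose letters were taken as TATAAA.
*TGFB2*, chr1:218345086-218345385: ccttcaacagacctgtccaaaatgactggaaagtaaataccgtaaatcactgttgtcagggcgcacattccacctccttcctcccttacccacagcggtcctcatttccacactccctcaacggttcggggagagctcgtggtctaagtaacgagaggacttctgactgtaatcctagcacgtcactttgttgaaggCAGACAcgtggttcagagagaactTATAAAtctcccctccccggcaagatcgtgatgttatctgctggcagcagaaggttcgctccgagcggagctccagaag
*FST*, chr5:53480379-53480678: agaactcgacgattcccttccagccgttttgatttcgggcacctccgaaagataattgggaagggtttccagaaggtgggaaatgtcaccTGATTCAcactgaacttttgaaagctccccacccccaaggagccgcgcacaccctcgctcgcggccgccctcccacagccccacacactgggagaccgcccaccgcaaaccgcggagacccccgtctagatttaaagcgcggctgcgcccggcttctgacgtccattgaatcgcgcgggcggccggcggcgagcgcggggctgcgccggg
*FSTL3*, chr19:676142-676441: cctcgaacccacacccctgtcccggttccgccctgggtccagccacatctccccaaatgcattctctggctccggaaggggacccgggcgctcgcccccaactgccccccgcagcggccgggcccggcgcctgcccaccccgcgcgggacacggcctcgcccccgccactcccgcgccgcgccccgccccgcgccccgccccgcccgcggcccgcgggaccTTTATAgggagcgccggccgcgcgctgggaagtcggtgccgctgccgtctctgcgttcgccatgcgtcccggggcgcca
The window of *TGFB2* held a CAGA box at -53 and a TATA box at -29 from the start site. *FST* held TGATTCA at -160, which matches the loose AP-1 letters but not the usual site. *FSTL3* held a TATA box at -29 on the minus strand. Over 35116 RefSeq promoters of this length the AP-1 letters were found in 7.71%, the CAGA box in 16.9% and the TATA box in 11.5%. Of the 21 promoters of the 10 genes, 2 held the AP-1 letters, 4 the CAGA box and 5 the TATA box. The AP-1 letters were also found for *TGFBR2*, the CAGA box for *TGFBR1* and *INHBA*, and the TATA box for *TGFB3*, *SMAD7* and *INHBA*. The palindrome of a glucocorticoid response element, allowing any base at its most variable positions, was found in 0.39% of all promoters and in 0 of the 21 promoters of the 10 genes. A match is a run of letters and not a bound site.

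*SMAD7* (chromosome 18 from 48919853 to 48952052, minus strand), the inhibitory SMAD that TGF-beta itself induces, changed in the control cells. EtOH libraries held 47.8 and 50.1 CPM at 1 h, 51.3 and 49.3 at 3 h, 51.7 and 60.1 at 5 h, 78.8 and 72.2 at 7 h, 60.4 and 56.6 at 9 h, and 61.2 and 58.5 at 11 h. Dex libraries held 37.4 and 32.1 CPM at 1 h, 45.7 and 55.4 at 3 h, 61.8 and 72.7 at 5 h, 68.1 and 76.2 at 7 h, 81.5 and 72.3 at 9 h, and 56.6 and 57.0 at 11 h. The EtOH level was highest at 7 h and the dex level at 9 h. Over time in EtOH, *SMAD7* was the only one of the 9 genes with a difference (adjusted p = 0.0238), where 3.18% of all features were called, and at 7 h it stood 0.62 above 1 h on the log2 scale (SE 0.11). Without EtOH replicate 1 at 7 h that adjusted p was 0.218. Against EtOH, *SMAD7* was called at 9 h only (log2 fold change 0.39, SE 0.12, adjusted p = 0.0411). This call was lost without either dex library (adjusted p = 0.499 and 0.210) and with DESeq2 (0.134). At 1 h the log2 fold change was -0.50 (SE 0.14, adjusted p = 0.149), with both dex libraries below both EtOH libraries. It passed without a filter (adjusted p = 0.0503), with a replicate block (0.000929), in one fit over 24 libraries (0.0580) and without dex replicate 1 (0.00742).

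Whether the difference between dex and EtOH changed with time was tested in one fit over 24 libraries. It did for 5 of the 9 genes, where 13.7% of all features were called. These were *TGFB2* (adjusted p = 2.51e-09), *FST* (3.66e-06), *TGFBR3* (1.44e-05), *TGFBR1* (0.00065) and *SMAD7* (0.00835). For *FSTL3* the adjusted p was 0.194, and it passed under some other settings, with DESeq2 at 0.0209. Between 1 and 3 h the log2 fold change moved by -1.70 for *TGFB2* (SE 0.16, adjusted p = 4.48e-08), by -1.41 for *FST* (0.30, 0.00504), by 0.72 for *TGFBR1* (0.15, 0.00502) and by 0.71 for *TGFBR3* (0.18, 0.0273). From 3 to 5 h *FST* moved by a further -1.36 (SE 0.39, adjusted p = 0.0473). No other step between neighbouring times was called for these genes. The fold change at 11 h differed from that at 5 h only for *TGFB2*, by -0.64 (SE 0.16, adjusted p = 0.0445), where 2.36% of all features were called. That call was lost without any one of 6 libraries, namely dex 5 h replicate 1 (-0.49, adjusted p = 0.279), dex 11 h replicate 2 (-0.51, 0.181) and each of the 4 EtOH libraries at 5 and 11 h (-0.67 to -0.62, 0.110 to 0.151).

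Levels of different genes were compared as CPM per kb of the longest listed transcript. The order may depend on how reads matching several transcripts were placed, which is not given in the sources used here. *TGFBR1* had 10 listed transcripts and *TGFBR2* 2. In EtOH libraries the medians ran in the order *TGFBR2* (49.7), *TGFBR1* (39.7), *TGFB1* (34.1), *TGFB2* (22.6), *SMAD7* (13.0), *FSTL3* (12.6), *FST* (3.27), *TGFBR3* (2.86), *TGFB3* (0.198) and *INHBA* (0.0650). The ranges over the 12 EtOH libraries were apart between *TGFB2* and *SMAD7*, between *FSTL3* and *FST* and between *TGFBR3* and *TGFB3*. The ranges of the other neighbours overlapped. Within a library *TGFB1* was still above *TGFB2* in all 12 EtOH libraries, and *TGFBR1* below *TGFBR2* in 11 of the 12. With dex the median of *TGFBR1* per kb was 92.5 and that of *TGFBR2* 50.4. The ratio of *TGFBR1* to *TGFBR2* per kb ran from 0.639 to 1.04 (median 0.779) in EtOH and from 1.21 to 2.25 (median 1.79) in dex libraries, without overlap. The ratio of *FSTL3* to *FST* ran from 2.16 to 6.96 (median 3.86) in EtOH and from 4.48 to 85.6 (median 55.0) in dex libraries. Of its dex libraries only those at 1 h were within reach of the EtOH range, at 4.48 and 7.11. From 5 h on each dex library held only 7 to 14 counts of *FST*, so the size of this ratio there rests on few reads. The ratio of *TGFB1* to *TGFB2* ran from 1.15 to 1.98 (median 1.48) in EtOH and from 1.37 to 8.45 (median 4.32) in dex libraries.

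**Figure D3:**
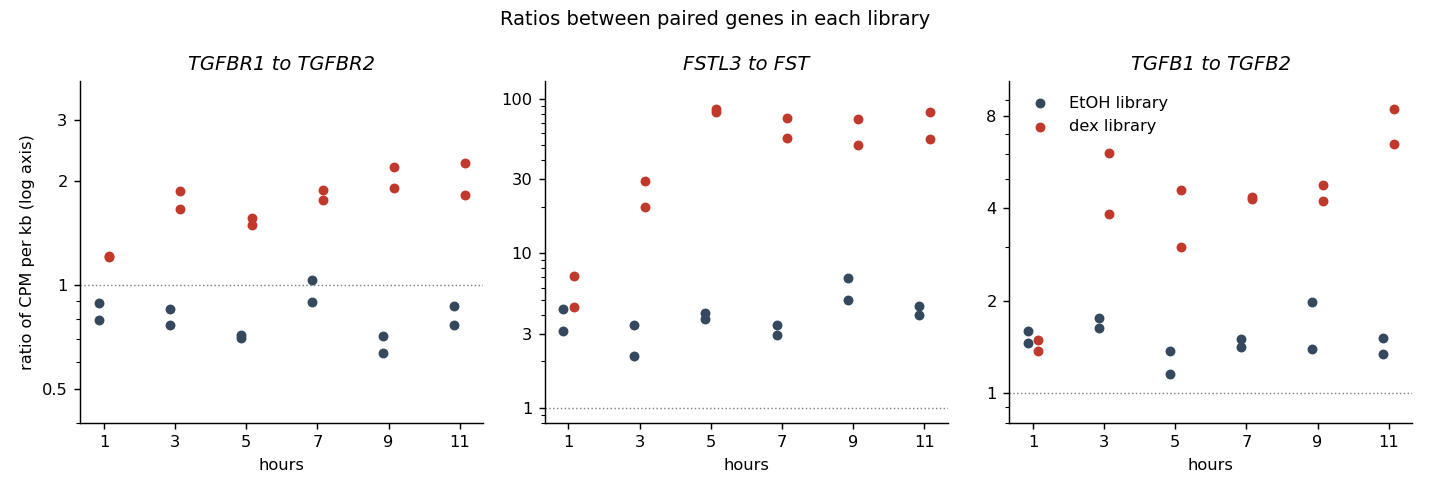
Ratio of CPM per kb between 2 genes in each library on a log axis, over hours of exposure, with EtOH libraries in dark blue, dex libraries in red and a dotted line at 1. *TGFBR1* exceeded *TGFBR2* in every dex library and in 1 EtOH library at 7 h. The ratio of *FSTL3* to *FST* with dex was highest at 5 h, where each dex library held only 7 counts of *FST*.

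At 5 h the tested transcripts of each of the 5 genes called there shared a direction. All 10 tested transcripts of *TGFBR1* were called higher, with log2 fold changes of 0.87 to 1.33. Both tested transcripts of *TGFB2* were called lower (-1.53 and -1.41), as were both of *FST* (-4.93 and -2.91). Of 6 tested *TGFBR3* transcripts all 6 had a higher level with dex and 5 were called (0.57 to 1.64), and both of *FSTL3* were called higher (1.06 and 1.52). At other times transcripts of a called gene could differ in sign. At 1 h the transcripts of *TGFBR1* ran from -0.13 to 0.55, with 9 of 10 higher with dex, and at 9 h those of *SMAD7* from -0.20 to 0.44, with 3 of 4 higher. How reads matching several transcripts were placed is not given in the sources used here, so near-identical transcripts are no independent evidence of each other.

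For each of the 5 genes called at consecutive times, the genes with the most similar series of 6 log2 fold changes were looked up among 3194 genes called in the same way, by the root mean square difference. Nearest to *TGFB2* were *TM4SF20* (0.190) and *TRIML2* (0.231). The nearest to *TGFBR1* were *FOXO3* (0.132) and *CRY2* (0.133). *TGFBR3* was nearest to *ATP2B4* (0.0848) and *TUT4* (0.103), and *FSTL3* to *KIF13B* (0.0787) and *C1QTNF1* (0.0823). *FST* had no neighbour as close, with *DIO2*, the deiodinase that activates thyroid hormone, at 0.252 and *C3orf80* at 0.599. The difference is not scaled to the size or SE of a change, and both were largest for *FST* among the 5 genes. Their part in its distance was not tested. *DIO2* had log2 fold changes of -1.80 at 3 h, -3.06 at 5 h and -2.52 at 11 h.

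Other genes of the pathway were read from the same fits, grouped by role. At 5 h, the time given for each list, 11.3% of all features were called higher and 11.9% lower. Of 10 other ligands of the family 5 could be tested, with 1 higher and 3 lower at 5 h (median log2 fold change -0.62, against 0.00 over all features). *LEFTY1*, an inhibitor of Nodal, had 0 to 3 counts in every EtOH library and 7 to 39 in the dex libraries from 3 h on, and was called higher from 3 to 9 h. *GDF15*, a stress-induced distant member of the family, had 22 to 50 counts in EtOH libraries and 1 to 7 in dex libraries from 3 h on, with a log2 fold change of -2.40 at 3 h (SE 0.43, adjusted p = 0.000154). *INHBB*, the subunit of activin B, was called higher at 3 h (1.10, SE 0.12, adjusted p = 4.34e-08), 9 h and 11 h, and its log2 fold change at 5 h was -0.19.

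Of 13 genes that hold TGF-beta latent or release it 11 could be tested, with 2 higher and 1 lower at 5 h (median -0.04), which is near the 11.3% and 11.9% of all features. Thrombospondin *THBS1*, which can activate latent TGF-beta, was called higher at all 6 time points. It held 444 and 513 CPM in the dex against 306 and 308 in the EtOH libraries at 5 h, and its log2 fold change was 1.17 at 11 h (SE 0.14, adjusted p = 1.00e-04). *LTBP1*, which tethers latent TGF-beta to the matrix, rose from 5 h on, with 1.17 at 7 h (SE 0.11, adjusted p = 1.26e-10). *LTBP4* was lower at 5, 7 and 9 h (-0.42 at 5 h, a call lost with DESeq2 at an adjusted p of 0.163 and under 3 other settings). *ITGB6*, a subunit of an activating integrin, was lower at 7 and 9 h (-0.53 at 7 h, lost without dex replicate 2 at 0.167).

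Of 9 other receptors and co-receptors 5 could be tested, with 0 higher and 1 lower at 5 h (median -0.15), against the same 11.3% and 11.9%. At 3 h 2 were higher and 1 lower, against 7.68% and 5.31% of all features. The higher ones, called at 3 h only, were *ACVR1* (0.39, SE 0.11, adjusted p = 0.0188) and *ACVR1B* (0.47, SE 0.14, adjusted p = 0.0204). The lower one at both times was *BAMBI*, a pseudoreceptor that dampens signalling, called from 3 to 11 h with -1.21 at 5 h (SE 0.14, adjusted p = 7.31e-10). All 11 SMADs and nuclear partners were tested, with 1 higher and 3 lower at 5 h (median -0.08), against 11.3% and 11.9%. *SMAD3*, which carries the signal to DNA, held 322 and 336 CPM in the EtOH and 185 and 218 in the dex libraries at 5 h. It was lower from 3 h on, with -1.35 at 11 h (SE 0.15, adjusted p = 7.38e-05). *TGIF1*, a corepressor of SMAD2 and SMAD3, was lower at 3, 5, 7 and 11 h with -0.97 at 3 h (SE 0.11, adjusted p = 6.44e-08). *SMAD2* was lower at 3, 5 and 7 h, with log2 fold changes of -0.34 to -0.28. Another list held 11 regulators of the pathway, most of which restrain it. Of these 10 could be tested, with 0 higher and 2 lower at 5 h (median -0.07), near the background of 11.9% lower. They were *PMEPA1*, which sequesters SMAD2 and SMAD3, lower from 3 h on with -0.67 at 9 h (SE 0.11, adjusted p = 0.000653), and the ubiquitin ligase *SMURF1*, with -0.32 at 5 h (SE 0.13, adjusted p = 0.0797), a call lost with DESeq2 (0.308) and under 6 other settings.

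Genes known to be induced or repressed by TGF-beta did not share a direction. Of 22 such genes, some of which stand on the lists above too, 21 could be tested. At 5 h 8 were higher and 3 lower, against 11.3% and 11.9% of all features (median log2 fold change 0.07, against 0.00 over all features), and at 9 h 6 were higher and 6 lower (median -0.12, with 10.1% and 8.21% of all features). Called at 2 or more consecutive times were 12 of the 21, where 18.9% of all features were. *IL11*, a cytokine, fell at all 6 time points and stood at 1.90 and 2.95 CPM in dex against 27.2 and 29.3 in EtOH libraries at 5 h (log2 fold change -3.54, SE 0.21, adjusted p = 2.53e-18). *SNAI2*, a repressor of epithelial genes, rose at all 6 (3.13 at 5 h, SE 0.23, adjusted p = 1.52e-15), as did the matricellular *CTGF* (2.39 at 11 h, SE 0.16, adjusted p = 9.75e-07). *CDKN1A*, a cell cycle inhibitor, rose from 3 h on (1.56 at 7 h, SE 0.08, adjusted p = 1.02e-16). *BHLHE40*, a transcriptional repressor, was lower at 1 and 3 h only (-1.67 at 1 h, SE 0.12, adjusted p = 3.70e-08).

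**Figure D4:**
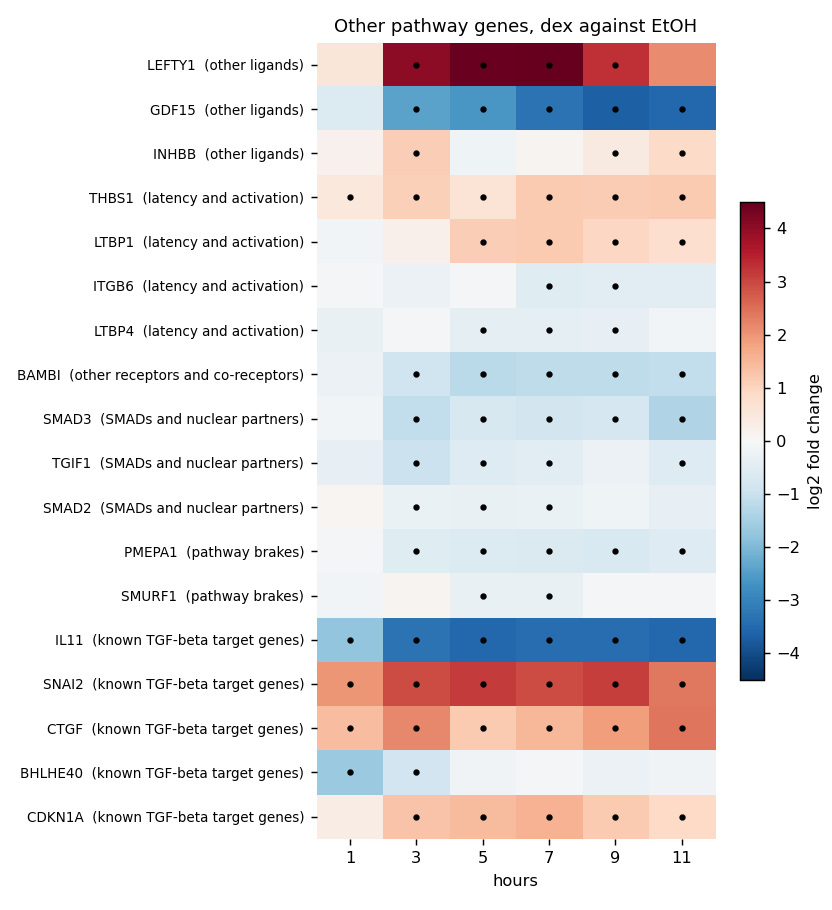
Log2 fold change of dex against EtOH (colour) for 18 other genes of the pathway at each time point in hours, with a dot where the adjusted p was at most 0.1 and the list of each gene in brackets. *LEFTY1*, *SNAI2* and *CTGF* were the most increased and *IL11* and *GDF15* the most decreased, and *BHLHE40* was called at 1 and 3 h only.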

How the data were processed

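RNA-seq was analysed in 24 libraries of A549 cells. The authors mapped stranded single-end poly-A reads to GENCODE transcripts (hg19 per the labels) with Bowtie and counted reads per transcript with samtools, so the deposited values are raw counts, not normalized. Times follow the duration in the labels, whose treatment text gives 1 h for every library. The paper's methods state triplicates, and 2 libraries per group are analysed here. Of 119207 transcripts, 110261 (94.1% of counts) were matched to symbols through GENCODE release 29, and counts were summed per gene. The row for unplaced reads held 0 counts.

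Counts were tested with edgeR 4.0.16 in R 4.3.3 (quasi-likelihood test, robust, TMM, filterByExpr over 12 groups), each time point by itself, adjusted by Benjamini-Hochberg, at a threshold of 0.1. Tests across time used one fit over 24 libraries, or over the 12 EtOH libraries. SEs were obtained from the log2 fold change and its F. The script was checked on simulated data. Figures were drawn with matplotlib 3.10.9. No replicate pair agreed within sampling noise.

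Genes and lists were chosen with earlier results of these data known. From each other list the genes called at 2 or more consecutive times were named, at most 6 by the size of change. *ACVR1* and *ACVR1B*, called at 3 h only, were named outside this rule. 1 gene so named is not reported here. The steps between neighbouring times were added after the counts were seen. Alternatives were DESeq2 1.42.0, its size factors in edgeR, no filter or at least 10 counts in every library, a replicate block, one fit over 24 libraries, a threshold of 0.05, 1 transcript per gene, and leaving out each library.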

Additional observations from a re-analysis of the deposited data

Results flagged for a closer look

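In the fit over 24 libraries, the difference between dex and EtOH changed between time points for 5 genes, by edgeR's quasi-likelihood F-test of the interaction. *TGFB2* had F = 42.4 (adjusted p = 2.51e-09), with log2 fold changes from -0.02 at 1 h to -2.12 at 11 h. *FST* had F = 19.3, *TGFBR3* F = 16.3 and *TGFBR1* F = 9.85, all with a smaller difference at 1 h than at any later time. *SMAD7* had F = 6.44, with log2 fold changes of -0.50 at 1 h and 0.39 at 9 h. *TGFB2* also differed between 11 and 5 h, by -0.64 on the log2 scale (adjusted p = 0.0445).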

How the results depend on the processing

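*TGFB2*, *TGFBR1*, *TGFBR3*, *FST* and *FSTL3* were called at 2 or more consecutive times under each alternative, except that *FST* could not be tested at 5, 7 and 9 h with at least 10 counts in every library. Of the 28 calls over the 6 time points, 26 held with DESeq2, 28 with its size factors, 28 without a filter, 27 in one fit and 25 with 1 transcript per gene, none with a changed sign. At 1 h, 2 genes in place of 1 were called without a filter, with the replicate block and in one fit, 0 with 1 transcript per gene, and 0 to 2 without 1 library. Between 11 and 5 h, 0 in place of 1 differed with 1 transcript per gene, and 0 to 1 without 1 library. Over time in EtOH, 3 in place of 1 passed without a filter, and 0 to 3 without 1 library (0 without EtOH replicate 1 at 7 h, 3 without EtOH replicate 1 at 9 h). The causes were not tested.

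Signs changed only where a gene was not called. These were *TGFBR2* at 1 h (0.0051 with 1 transcript per gene) and at 5 h (-0.0057 without a filter), and *SMAD7* at 3 h (-0.00057 with DESeq2, -0.00066 without a filter, -0.0017 with the replicate block and -0.030 with 1 transcript per gene). Without 1 library, log2 fold changes ran for *TGFB1* from -0.47 to 0.0595 at 3 h, -0.11 to 0.23 at 5 h and -0.0743 to 0.0145 at 7 h, and for *TGFB2* from -0.0334 to 0.0042 at 1 h. For *TGFB3* they ran from -0.96 to 0.60 at 3 h, -0.82 to 0.56 at 5 h, -0.15 to 0.51 at 7 h and -1.45 to 1.22 at 11 h. For *TGFBR2* they ran from -0.12 to 0.0254 at 1 h, -0.0311 to 0.0520 at 5 h, -0.23 to 0.0201 at 9 h and -0.13 to 0.0687 at 11 h. They ran from -0.26 to 0.31 for *FSTL3* at 1 h, and for *SMAD7* from -0.15 to 0.14 at 3 h and -0.15 to 0.0121 at 7 h. The change from 5 to 11 h ran from -1.28 to 1.56 for *TGFB3*, -0.13 to 0.0559 for *TGFBR2*, -0.0037 to 0.16 for *TGFBR3* and -0.31 to 0.44 for *FSTL3*. A group left with 1 library was assumed to vary like the others.

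Over all features, DESeq2 called 1325 against 2582 at 3 h, 2659 against 4610 at 5 h, 2726 against 5132 at 7 h and 2034 against 3642 at 9 h. At 1 h 296 were called without a filter against 172, and at 11 h 2954 in one fit against 1705. Without 1 library the count ran from 95 to 762 at 1 h, 1542 to 3027 at 3 h, 2656 to 5904 at 7 h, 1319 to 6114 at 9 h and 854 to 5861 at 11 h. Libraries with the same replicate number did not deviate together at every time (correlations -0.0585 to 0.135). These values cannot tell whether the numbers pair samples, and the paper describes the ethanol control as paired. With the replicate block 640 features were called at 1 h, and all 28 calls of the 10 genes held. Depth limits *TGFB3* and *INHBA*, which had 139 and 84 counts in all.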
